A study of Mus musculus with 6 samples.

Results

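The tricarboxylic acid (TCA) cycle, the entry of pyruvate into it and the use of glutamate by it were followed here through 30 mouse genes, in cells exposed to a static magnetic field and in untreated cells. The genes were chosen by name from the known enzymes of the pathway, and all 30 were found by symbol among the 23886 gene identifiers listed. AML12, the cells used, is a hepatocyte line established from the liver of a mouse carrying a transforming growth factor alpha transgene. It is a single established line, so no animal-to-animal spread enters the comparison. Of the 6 poly(A) RNA libraries, 3 came from untreated AML12 cells (Control 2, 3 and 4) and 3 from AML12 cells under the field treatment (SMF 1, 2 and 3), with no other agent or allele named in either group. The sources used here give neither field strength nor exposure time, and nothing in them says that the libraries of a group came from separate cultures, so p-values measure the spread between these libraries, which may be technical. The title of the series names cellular respiration, and the comparison asks whether transcripts of the enzymes that feed electrons to the respiratory chain differed between the groups.

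In the mitochondrial matrix, the pyruvate dehydrogenase (PDH) complex turns pyruvate into acetyl-CoA, which citrate synthase joins to oxaloacetate. The cycle then oxidises the resulting citrate back to oxaloacetate, and the electrons leave as NADH and reduced flavin for the respiratory chain. Carbon also enters by other doors: pyruvate carboxylase makes oxaloacetate, and glutamate dehydrogenase and the aminotransferases make 2-oxoglutarate from glutamate. In hepatocytes the same enzymes serve gluconeogenesis, amino acid breakdown and the malate-aspartate shuttle, which carries reducing power from the cytosol into mitochondria.

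Library totals ran from 15514530 to 18200516 reads. Levels are the FPKM that the authors deposited, which divide the fragments of a gene by its length and by the total of the library. A single read over 1 kilobase came to between 0.0549 and 0.0645 FPKM, depending on the library. No 2 libraries of a group agreed within sampling noise, with a chi-square per gene of 3.41 to 6.15 over 11796 genes. Of 9 hepatocyte markers, 7 had a mean of at least 1 FPKM, among them Hnf4a, a hepatocyte transcription factor, at 87.0 to 95.5 and Alb, albumin, at 26.3 to 34.1, while the secreted liver proteins Apoa1 and Serpina1a stayed at or under 0.59 and 0.47. Of 4 bile duct markers, 3 had such a mean, with Krt19 at 1024 to 1163 FPKM, Krt7 at 58.8 to 65.2 and Sox9 at 8.85 to 10.4, and Epcam stood at or under 0.027. The other lists held 7 stellate cell, 5 endothelial and 5 Kupffer cell or leukocyte genes. Of these Lrat, Kdr, Adgre1 and Clec4f were not found by symbol. Of those found, 1 of 6 stellate cell genes, none of 4 endothelial genes and 2 of 3 Kupffer cell or leukocyte genes had a mean of at least 1 FPKM. The last pair were Cd68 at 2.05 to 3.08 and Csf1r at 0.93 to 1.43, while Ptprc, which marks all leukocytes, stayed at or under 0.016. The summed level of the Kupffer cell or leukocyte list was 2.99 to 4.33 in Control and 3.4 to 3.73 in SMF libraries, and that of the hepatocyte list 3634 to 3826 and 3808 to 4013. Most of the hepatocyte sum came from the keratins Krt8 (mean 1921 and 2018) and Krt18 (1584 and 1658). The part of these in the results was not tested.

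No gene of the pathway passed the test. Differences were tested by limma on log2(FPKM + 1) over the 11114 genes with at least 1 FPKM in at least 3 libraries, and all 30 members were among them. None of the 30 had an adjusted p under 0.05, against 0.0% of all genes tested, and the lowest adjusted p among the members was 0.25. At an unadjusted p under 0.05 stood 1 member of 30 (3.33%) and 1998 of all genes tested (18.0%). The second test, limma-voom on reads recovered from the FPKM, called 420 of 11096 genes (3.79%) and none of the 30. Its lowest adjusted p among the members was 0.189, and 3 of the 30 (10%) had an unadjusted p under 0.05, against 21.3% of all genes.

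In RNA from whole cultures, fewer cells of a type and less RNA per cell cannot be told apart. As a set the 30 genes stood close to no difference. Of them 12 had a difference above 0 and 18 below 0, with a median of -0.019 on the log2(FPKM + 1) scale, beside 46.7% above 0 and a median of -0.01 over all genes tested. Corrected for GC content and length, 15 of the 30 were above 0 and the median was 0.005. For 25 of the 30 the 95% interval of the difference lay within 1.2-fold in either direction, and for 8 of these within 1.1-fold. These are folds of FPKM + 1, which for low genes are smaller than folds of FPKM. Among all genes tested, 57.3% had an interval within 1.2-fold. The 30 genes together took 0.454% ± 0.0024 of the reads without the field and 0.455% ± 0.0047 with it (SD, n = 3), and the ranges of the groups overlapped (0.453% to 0.457% and 0.451% to 0.46%).

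**Figure D1:**
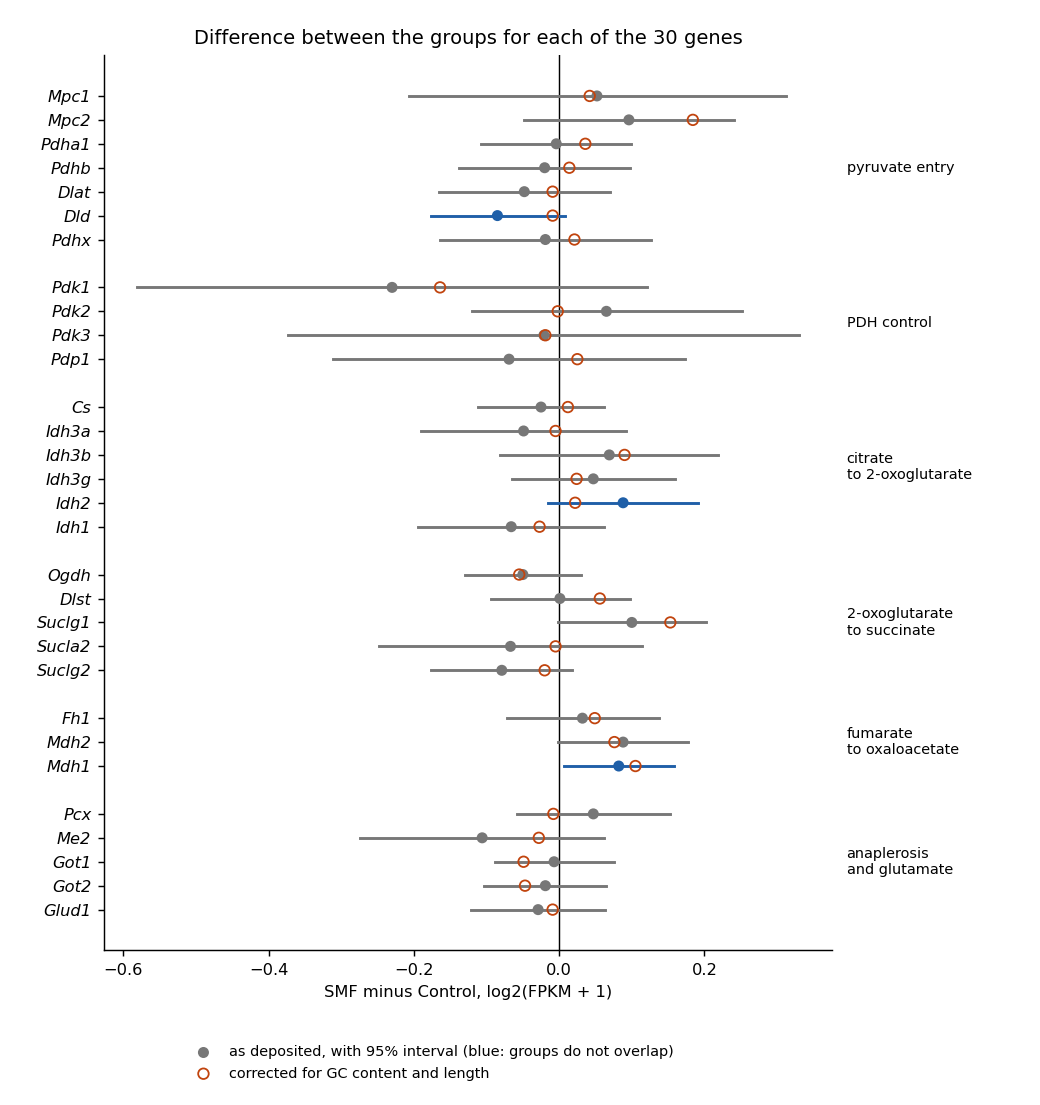
Each filled point is the difference between SMF and Control libraries on the log2(FPKM + 1) scale with its 95% interval from limma (3 libraries a group), and each open circle the same difference corrected for GC content and gene length. Intervals of 29 of the 30 genes cross 0 and that of Mdh1 runs from 0.007 to 0.158, while no adjusted p was under 0.05.

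For 3 members the SMF values did not overlap the control values: Mdh1 and Idh2 were above every control (6.67% of the 30, against 11.0% of all genes tested) and Dld was below (3.33%, against 12.7%). Both shares lay under those of all genes tested. The remaining 27 overlapped.

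Mdh1 (ENSMUSG00000020321) encodes cytosolic malate dehydrogenase, which turns oxaloacetate into malate for the malate-aspartate shuttle. It measured 94.45, 97.4 and 94.98 FPKM in Control 2, 3 and 4 and 100.1, 100.4 and 103.4 in SMF 1, 2 and 3. No SMF value reached down to a control, and the distance between the nearest pair was small beside the level. Its difference was 0.08 ± 0.03 (SE) on the log2(FPKM + 1) scale, with a limma adjusted p of 0.25, and 0.11 once GC content and length were corrected for (adjusted p = 0.267).

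Idh2 (ENSMUSG00000030541) encodes the mitochondrial isocitrate dehydrogenase that makes NADPH. Its controls were at 77.8, 81.5 and 79.4 FPKM and its SMF libraries at 89.9, 81.6 and 82.6. SMF 1 stood apart at the top, and SMF 2 was just above Control 3. The difference was 0.09 ± 0.045 (SE; limma adjusted p = 0.34), and without SMF 1 it was 0.045. Idh2 has a GC content of 55.6%, and corrected for GC content and length its difference was 0.02 (limma adjusted p = 0.836).

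Dld (ENSMUSG00000020664) encodes dihydrolipoamide dehydrogenase, the E3 subunit that the PDH and 2-oxoglutarate dehydrogenase complexes share. It stood at 35.9, 33.7 and 34.4 FPKM without the field and at 31.8, 33.1 and 33.0 with it. The lowest control and the highest SMF library were close together. The difference was -0.09 ± 0.04 (SE; limma adjusted p = 0.309), and -0.01 when corrected in the same way (adjusted p = 0.945). Dld has a GC content of 40.6%.

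**Figure D2:**
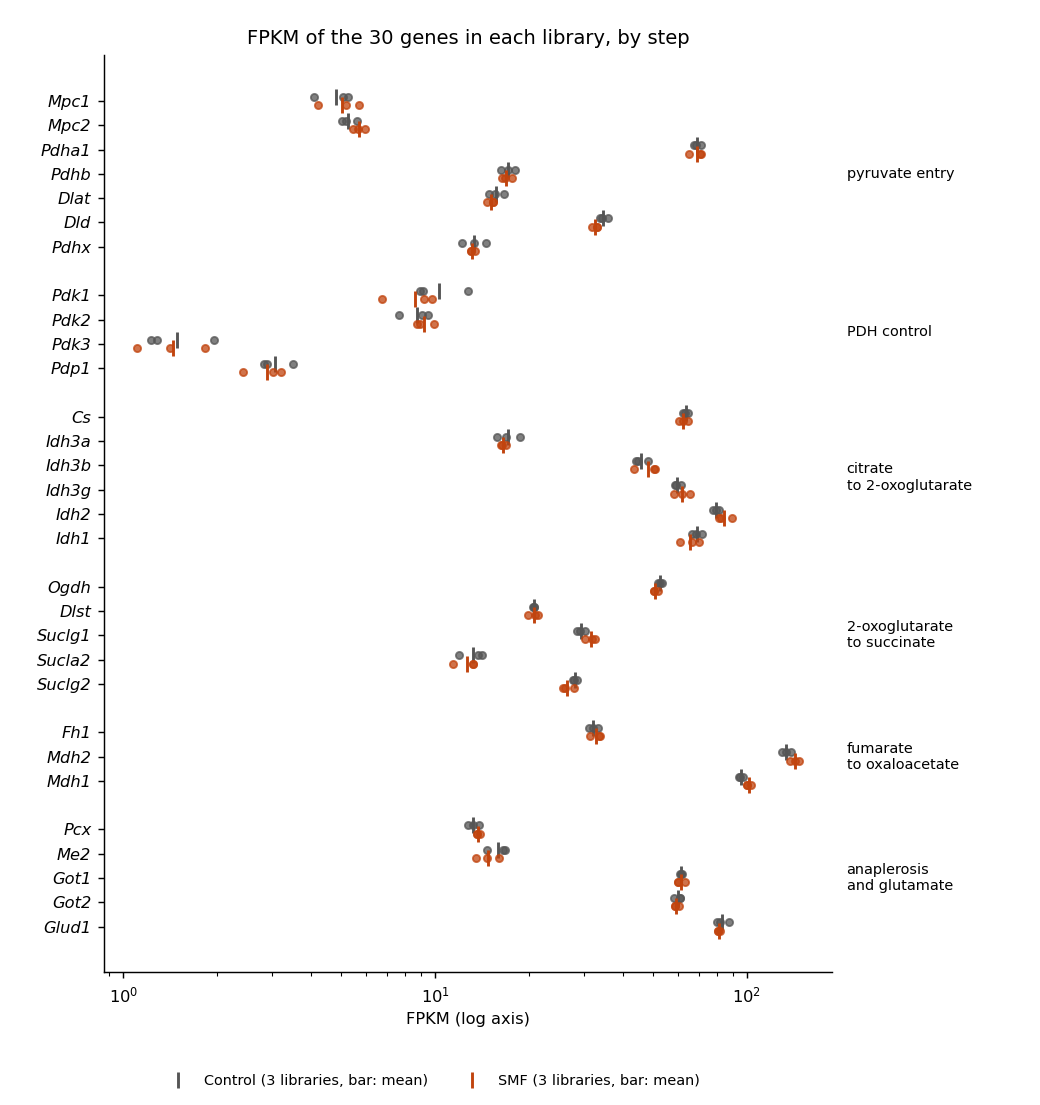
FPKM on a log axis for each of the 30 genes in the 3 Control (grey) and 3 SMF (orange) libraries, with points for libraries and bars at the group means and genes grouped by step. Mdh2 was the highest at 130 to 146.8 FPKM and Pdk3 the lowest at 1.11 to 1.95, and the groups do not overlap for Mdh1, Idh2 and Dld alone.

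Pyruvate entry was represented by 7 genes, of which 2 had a difference above 0 and 5 below (median -0.019). Corrected for GC content and length, 5 of the 7 were above 0 and the median was 0.021. The mitochondrial pyruvate carrier, a pair of small inner membrane proteins that admit pyruvate to the matrix, was low by deposited FPKM, and Mpc2 was less so per principal transcript, as given with the lengths. Mpc1 was at 5.27, 4.09 and 5.08 FPKM without the field and 4.21, 5.17 and 5.72 with it. Mpc2 was at 5.17, 5.02 and 5.62 and at 5.45, 5.67 and 5.98. Both genes overlapped between the groups, and SMF 3 held the highest value of each. Few reads stood behind Mpc1, 136 to 214 a library, against 621 to 789 for Mpc2.

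Within the PDH complex the genes differed from each other far more than the groups did. Pdha1, the X-linked alpha subunit of the E1 component that decarboxylates pyruvate, was at 69.1 ± 1.97 FPKM without the field and 69.0 ± 3.35 with it (SD, n = 3, as for the means below). Pdhb, the E1 beta subunit, was at 17.1 ± 0.86 and 16.9 ± 0.66. The FPKM of Pdha1 was 3.8 to 4.18 times that of Pdhb in controls and 3.9 to 4.32 times in SMF libraries, although E1 holds the subunits in equal number. Per principal transcript the ratio was smaller, at a mean of 2.08 in controls, as given with the lengths. Dlat, the E2 core that passes the acetyl group to coenzyme A, was at 15.7 ± 0.88 and 15.1 ± 0.38. Pdhx, which binds E3 to the core, was at 13.4 ± 1.19 and 13.1 ± 0.22. All 4 overlapped between the groups.

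A coefficient of variation over 10% among controls was found for 5 members, the 4 genes that switch the PDH complex off and on and Mpc1. Their control means were low, at 1.49 to 10.3 FPKM, although Mpc2 at 5.27 FPKM varied by 5.94%. Whether the spread goes with low level was not tested, and the share over all genes is not given here. PDH kinases phosphorylate and silence E1, and the phosphatase Pdp1 reverses this. Pdk1, a kinase gene known as a target of the hypoxia factor HIF1, measured 12.7, 9.16 and 8.92 FPKM in Control 2, 3 and 4 and 9.24, 6.78 and 9.77 in SMF 1, 2 and 3. Control 2 was high and SMF 2 low, and the other 4 libraries lay between 8.92 and 9.77, with both groups mixed among them. Pdk3 measured 1.95, 1.22 and 1.28 without the field and 1.41, 1.11 and 1.83 with it, on 49 to 84 reads a library, again with its highest value in Control 2 and its lowest in SMF 2. Pdk2 followed neither, at 9.1, 9.5 and 7.69 without the field and 8.95, 8.75 and 9.89 with it. Pdp1 was at 3.5, 2.82 and 2.89 and at 2.42, 3.21 and 3.03, on 169 to 262 reads a library. The 95% intervals were wide here, with 1 of the 4 inside 1.2-fold of FPKM + 1, against 24 of the other 26 members.

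Control 2 and SMF 2 stood apart in the same way for most, but not all, of the other hypoxia and HIF1 targets followed. A list of such genes held 15 symbols, with Ero1l and Ero1a naming the same gene. All 14 genes were in the files, and 12 were tested. Control 2 held the highest value in 10 of the 12 (83.3%, against 17.9% of all genes tested). SMF 2 held the lowest in 11 (91.7%, against 11.8%). Both held in 9 (75%), against 2.85% of all genes tested and 2 of the 30 members, Pdk1 and Pdk3. The list was chosen with earlier results of these data known, so these shares are description and not a test. Bnip3, a mitophagy receptor, was at 49.4, 28.7 and 33.4 FPKM without the field and 30.3, 23.1 and 33.4 with it. Slc2a1, a glucose transporter, was at 42.7, 36.0 and 37.1 and at 37.1, 35.4 and 39.1. Pgk1 and Ldha, glycolytic enzymes, were highest in Control 2 at 617.5 and 586.6 FPKM and lowest in SMF 2 at 492.3 and 498.6. The tested genes without both traits were Vegfa, highest in Control 3, Ankrd37, highest in SMF 3, and Ero1l, lowest in SMF 1. Car9 and Adm, too low to be tested, were lowest in Control 4. All 12 had a difference below 0 (median -0.061), while 46.7% of all genes tested were above 0. None of the 12 passed limma (lowest adjusted p = 0.326) or limma-voom (lowest adjusted p = 0.138). At an unadjusted p under 0.05 stood none by limma, against 18.0% of all genes. By limma-voom it was 5 (41.7%), against 21.3%. Whether the spread of Pdk1 shares a source with that of these genes was not tested.

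**Figure D3:**
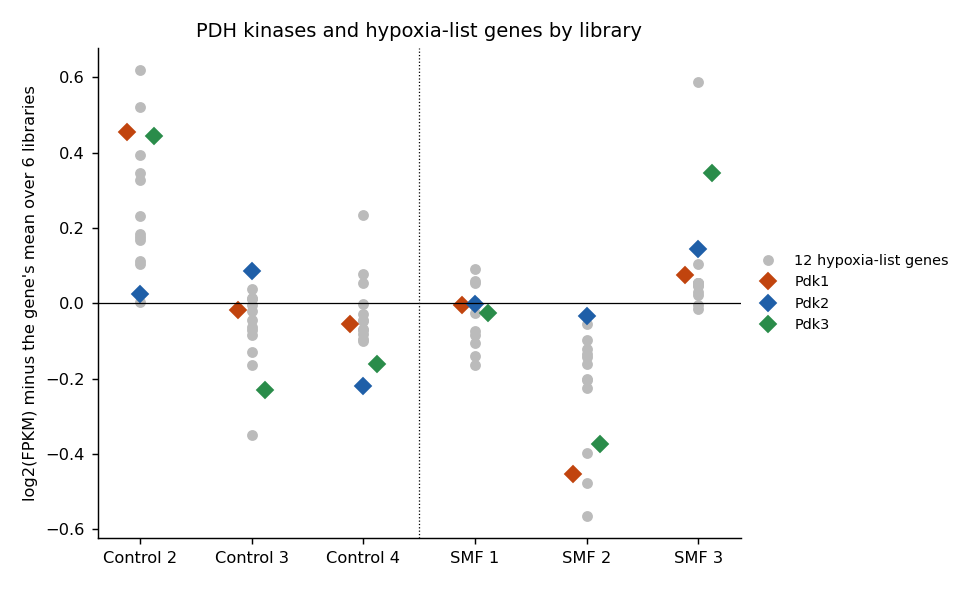
For each library, log2(FPKM) of Pdk1, Pdk2, Pdk3 and the 12 tested genes of the hypoxia list, minus each gene's mean over the 6 libraries. Pdk1 and Pdk3 were highest in Control 2 and lowest in SMF 2, as were 9 of the 12 listed genes, while Pdk2 was lowest in Control 4.

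The start regions of the 3 kinase genes are shown as description. A link between their letters and the levels in the libraries was not tested. They are RefSeq sequences on build GRCm38.p6, from 250 bases before to 50 after the most upstream listed start, on the strand of the gene. Capitals mark ACGTG or GCGTG, the core letters that HIF1 is known to bind, searched on both strands. Over all 32851 such windows, 19.6% held ACGTG, 32.4% held GCGTG and 43.8% held at least one of them.
Pdk1, chr2:71872974-71873273, plus strand: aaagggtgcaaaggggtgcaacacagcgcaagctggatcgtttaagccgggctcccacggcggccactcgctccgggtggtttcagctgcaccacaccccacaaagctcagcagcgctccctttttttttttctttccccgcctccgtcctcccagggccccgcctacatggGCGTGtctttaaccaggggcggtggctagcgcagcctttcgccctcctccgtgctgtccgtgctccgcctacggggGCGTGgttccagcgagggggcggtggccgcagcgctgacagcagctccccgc
Pdk2, chr11:95041322-95041621, minus strand: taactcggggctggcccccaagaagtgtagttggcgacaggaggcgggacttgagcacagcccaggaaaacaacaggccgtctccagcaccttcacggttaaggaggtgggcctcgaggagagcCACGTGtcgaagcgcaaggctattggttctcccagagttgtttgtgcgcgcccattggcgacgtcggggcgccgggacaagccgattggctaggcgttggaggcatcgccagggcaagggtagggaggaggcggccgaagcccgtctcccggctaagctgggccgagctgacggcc
Pdk3, chrX:93832101-93832400, minus strand: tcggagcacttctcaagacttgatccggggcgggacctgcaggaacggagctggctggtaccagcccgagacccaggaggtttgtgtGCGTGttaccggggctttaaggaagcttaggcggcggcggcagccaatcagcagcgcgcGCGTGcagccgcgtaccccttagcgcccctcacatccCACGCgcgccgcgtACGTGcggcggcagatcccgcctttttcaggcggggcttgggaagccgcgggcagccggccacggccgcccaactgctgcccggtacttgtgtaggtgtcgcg
Pdk1 held GCGTG at 2 places and no ACGTG in this window. Pdk2 held ACGTG at 1 place, read as a match on both strands because the 6 letters there are a palindrome. Pdk3 held ACGTG once and GCGTG at 3 places. A match describes the letters and not a bound site, and Pdk1 and Pdk2 each have a further listed start that is not shown.

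From citrate to 2-oxoglutarate, 3 of 6 genes had a difference above 0 (median 0.011). Corrected for GC content and length, 4 of the 6 were above 0 and the median was 0.017. Cs, citrate synthase, which opens the cycle, was at 63.6 ± 1.04 FPKM without the field and 62.5 ± 2.14 with it. The NAD-dependent isocitrate dehydrogenase, one that calcium activates, has a catalytic subunit, Idh3a, and subunits Idh3b and Idh3g. Idh3a was at 17.1 ± 1.48 and 16.5 ± 0.33. Idh3b was at 48.3, 44.8 and 44.2 without the field and 50.4, 43.4 and 50.7 with it, and Idh3g at 61.6, 59.3 and 58.7 and at 65.8, 58.3 and 61.9. For the last pair SMF 2 held the lowest value of all 6 libraries, so that the groups overlapped. Idh1, the cytosolic enzyme that makes NADPH, was at 69.0 ± 2.59 and 65.9 ± 4.72. The ratio of Idh1 to Idh2 within a library was 0.92, 0.84 and 0.84 without the field and 0.68, 0.81 and 0.85 with it, with SMF 1 the lowest.

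From 2-oxoglutarate to succinate, 2 of 5 genes had a difference above 0 (median -0.05). Corrected for GC content and length, 2 of the 5 were above 0 and the median was -0.005. Ogdh, the E1 subunit of the calcium-activated 2-oxoglutarate dehydrogenase complex, was at 51.7, 53.5 and 52.7 FPKM without the field and 50.3, 51.8 and 50.2 with it. Its groups overlapped, with SMF 2 above Control 2. Dlst, the E2 subunit of the same complex, was at 20.7 ± 0.12 and 20.7 ± 0.73. Suclg1, the alpha subunit common to both forms of succinyl-CoA synthetase, was at 29.2, 30.4 and 28.5 without the field and 31.8, 30.2 and 32.6 with it. Its beta partners had means on the other side. Suclg2, of the GTP-forming enzyme, was at 27.9, 27.8 and 28.6 and at 25.7, 27.8 and 26.1, and Sucla2, of the ATP-forming enzyme, at 14.2, 11.9 and 13.7 and at 11.4, 13.2 and 13.2. All 3 overlapped between the groups, and a difference between alpha and beta subunits was not tested. By deposited FPKM, Sucla2 was 0.43 to 0.51 times as high as Suclg2 in controls and 0.44 to 0.51 times in SMF libraries. Per principal transcript the mean ratio was 0.62 in both groups.

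From fumarate to oxaloacetate, all 3 genes had a difference above 0 (median 0.082), also when corrected for GC content and length. Fh1, fumarase, was at 32.1 ± 1.08 FPKM without the field and 32.9 ± 1.37 with it. Mdh2, the malate dehydrogenase of the matrix and the highest gene of the pathway, was at 130, 138.5 and 133.0 without the field and 146.8, 137.9 and 142.4 with it. Its groups overlapped, with Control 3 above SMF 2. By deposited FPKM the ratio of Mdh1 to Mdh2 overlapped between the groups, at 0.7 to 0.73 in controls and 0.68 to 0.73 in SMF libraries. Per principal transcript its mean was 0.37 in both groups.

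Of the 5 genes that feed or drain the cycle, 1 had a difference above 0 and 4 below (median -0.019), and the groups overlapped for all 5. Corrected for GC content and length, 0 of the 5 were above 0 and the median was -0.028. Pcx, pyruvate carboxylase, which makes oxaloacetate, was at 13.3 ± 0.55 FPKM without the field and 13.7 ± 0.18 with it. Me2, the mitochondrial malic enzyme that returns malate to pyruvate, was at 16.8, 14.6 and 16.5 and at 13.5, 14.7 and 16.1. By deposited FPKM the aspartate aminotransferases of the malate-aspartate shuttle were even, with cytosolic Got1 at 61.5 ± 0.48 and 61.3 ± 1.86 and mitochondrial Got2 at 60.2 ± 1.69 and 59.4 ± 1.01. They were less even per principal transcript, as given with the lengths. Glud1, glutamate dehydrogenase, was at 87.3, 80 and 81.7 in controls, with Control 2 the highest, and 80.6, 81.0 and 82.2 in SMF libraries.

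Further genes of the pathway were followed as a fixed list of 41, of which 35 were tested. None passed limma (lowest adjusted p = 0.164) or limma-voom (lowest adjusted p = 0.109). At an unadjusted p under 0.05 stood 6 by each test (17.1%). Over all genes that share was 18.0% by limma and 21.3% by limma-voom. Of the 35, 24 had a difference above 0 (median 0.022). The SMF values lay above every control for 8 (22.9%, against 11.0% of all genes tested) and below for 1 (2.86%, against 12.7%).

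Among those without overlap and with the smallest unadjusted p were Gls2, Gpt and Lipt1. Gls2, liver-type glutaminase, which frees glutamate from glutamine, was at 6.57, 6.45 and 6.68 FPKM without the field and 7.89, 7.43 and 7.75 with it. Its difference was 0.2 ± 0.05 (SE; limma adjusted p = 0.164), and 0.14 corrected. Gpt, alanine aminotransferase, which makes pyruvate from alanine, was at 16.6, 16.2 and 15.99 and at 20.6, 17.5 and 18.1 (0.19 ± 0.06 SE; limma adjusted p = 0.202), and its corrected difference was 0.10. Lipt1, which attaches lipoate to the E2 subunits, was the 1 gene lower, at 2.73, 3.24 and 3.04 FPKM without the field and at 1.89, 2.51 and 2.47 (-0.29 ± 0.10 SE; limma adjusted p = 0.217; -0.30 corrected). Few reads stood behind Lipt1, 60 to 121 a library.

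The other 6 genes of the list stayed under 0.25 FPKM in every library. Among them Ldhb and Pck1, which encode a lactate dehydrogenase subunit and the cytosolic phosphoenolpyruvate carboxykinase of gluconeogenesis, were listed at 0 in all 6, and Pdk4, the fourth PDH kinase, in 5 of 6. These 3 were singled out after their values were seen.

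Levels compared between genes depended on the length used. By FPKM as deposited, 11 of the 30 genes had a control mean over 50, 14 lay from 10 to 50 and 5 under 10 (Mpc1, Mpc2, Pdk2, Pdk3 and Pdp1). The highest mean, of Mdh2, was 90.1 times the lowest, of Pdk3. The deposited values divide by the length of all exons of a gene merged, which for the 30 genes is 1.07 to 7.17 times the length of the principal transcript of the GENCODE M21 annotation, and at least 2 times for 10 of them. Dividing the recovered reads by the principal transcript raised Mpc2 from 5.27 to 37.8 and from rank 27 to rank 20 of 30, because its merged exons cover 7344 bases and its principal transcript 1025. Mpc1 went from 4.81 to 10.5, and the ratio of Mpc1 to Mpc2 in controls from 0.91 to 0.28. The ratio of Pdha1 to Pdhb fell from 4.04 to 2.08, and Cs rose from rank 7 to rank 2. Mdh2 stayed the highest and Pdk3 the lowest. Reads from other transcripts of a gene count toward the principal one here, so neither scale gives molecules. A change of length leaves the ratio of levels between the groups within a gene as it was. Differences on log2(FPKM + 1) depend on the level, and were not fitted with the principal lengths.

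**Figure D4:**
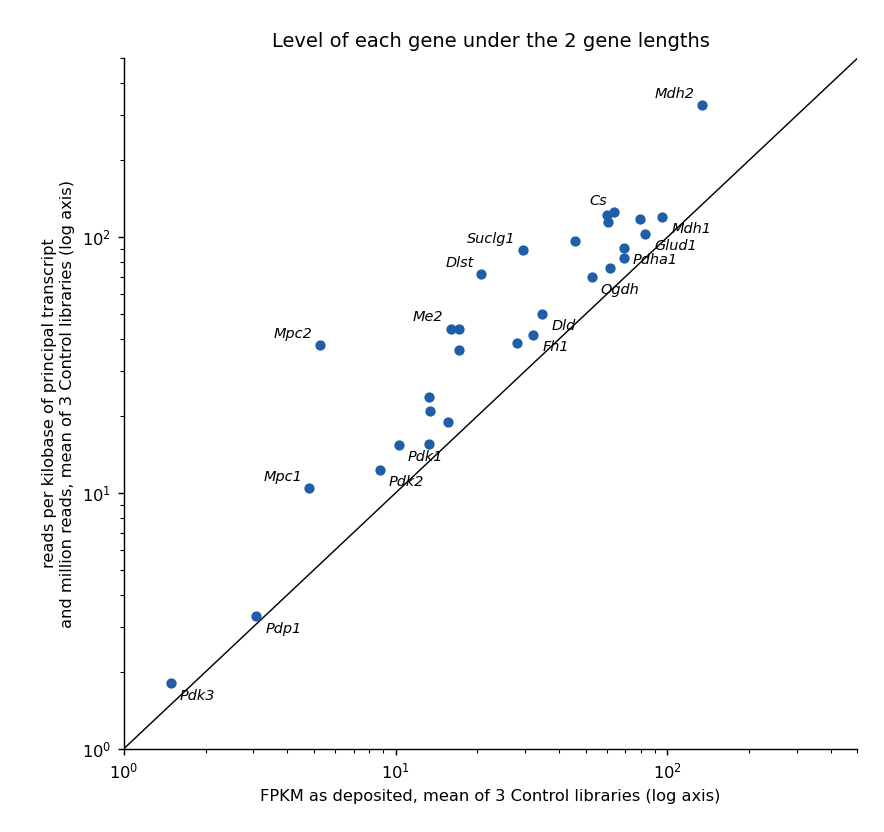
Level of each of the 30 genes in control libraries (mean of 3) by FPKM as deposited (x, log axis) and by reads per kilobase of principal transcript, scaled to the library total as in FPKM (y, log axis), with the line of equality and selected genes named. Every gene lies above the line, and Mpc2 is farthest from it (5.27 against 37.8).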

How the data were processed

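The authors deposited FPKM per gene, 1 file for each of 6 libraries. Per the labels' protocols, mRNA was captured on oligo(dT) beads, fragmented and copied from random primers. No strand marking is stated, so overlapping antisense genes cannot be told apart. Per the submitters' processing notes the build was GRCm39 and the tools HISAT2 2.1.0 and Bowtie2 2.2.3. The sources used here name no counting tool and do not say how multiply mapped reads were treated. Group and number came from the sample titles. Symbols came from GENCODE M21 (23521 of 23886 identifiers).

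limma 3.58.1 (R 4.3.3) was fitted over all genes with at least 1 FPKM in at least 3 libraries, on log2(FPKM + 1) with a variance trend, two-sided, with Benjamini-Hochberg adjustment at 0.05. The pseudocount of 1 understates changes of low genes. Whole reads were recovered from the FPKM: at the M21 exon length, 98.08% of genes were whole in all 6 libraries within 0.02 reads, and for 342 further genes the length was searched for (at least 50 reads in every library). limma-voom used these reads with the recovered totals. The correction for GC content and length was a loess surface (span 0.3) within each library, over 99.47% of tested genes. The alternatives also covered pseudocount, filter, scaling, threshold, a replicate block and leaving out libraries. limma-voom with the correction, and limma-voom without each library, were added after seeing the data.

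The members, lists and rules were chosen with earlier results of these data known. A fold with its error and adjusted p was printed for members whose groups did not overlap or that passed the threshold, and FPKM alone for the others. Of the related genes, those past the threshold were named, or otherwise at most 4 without overlap and with the smallest p. Of those 4, 1 is not reported here. Figures used matplotlib 3.10.9 in Python 3.11.15.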

Additional observations from a re-analysis of the deposited data

How the results depend on the processing

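None of the 30 members passed at 0.05 in any of 25 fits; the lowest adjusted p, 0.0531, was that of Idh3b by limma-voom without SMF 2, named after its value was seen. The related list had no call in the alternatives computed for it, which do not include limma-voom without single libraries. The number of genes called over the whole table depended on the fit: 0 by limma, 8 with a filter at 5 FPKM, 420 by limma-voom and 86 by limma-voom with the GC content and length correction. Leaving out 1 library in turn gave 0 to 3 by limma, and 6 (without Control 4) to 1386 (without SMF 2) by limma-voom. With the replicate block, 19 genes were called, and 3 with the block and the correction together. The numbers 2 and 3 alone occur in both groups, and the deviations of same-numbered libraries correlated at 0.058 and 0.046, so the numbers were not taken to pair the libraries. The median difference of the members, -0.019, was -0.053 after rescaling to TPM, which moved the median of all genes to -0.043. It was 0.005 with the correction, 0.012 with the replicate block and the correction, and 0.01 by limma-voom with the correction. Without 1 library it ran from -0.025 to 0.001 (without Control 2). The cause of these shifts was not tested. In the same alternatives the differences of Mdh1, Idh2 and Dld ran at 0.049 to 0.105, 0.002 to 0.114 and -0.12 to -0.009. These genes were picked because their groups did not overlap, which fixes the sign when a library is left out. Their kept direction is therefore no support for a difference. With 3 libraries a group, the median half-width of the members' 95% interval was 0.11 on the log2 scale.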

Other observations

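The lengths behind the deposited FPKM matched the exon lengths of GENCODE M21, an annotation of build GRCm38, for 98.08% of the genes above 0 that have an M21 length, although the submitters' processing notes name GRCm39. Mdh1 was among the genes whose length differed, at 2662 bases.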
